A study of Mus musculus with 8 samples.

Results

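Lingo1 and 8 genes of the Nogo receptor pathway were followed in cultured mouse oligodendrocyte lineage cells with and without Med23, a subunit of the Mediator complex that links transcription factors to RNA polymerase II. The 9 genes were chosen by name, for their place in or near this pathway, and they are 9 of the 24346 genes in the expression table. They are the ligands Rtn4 and Omg, the receptors Rtn4r and Rtn4rl1, the receptor subunit Lingo1 with its paralogs Lingo2 and Lingo3, and the death domain receptors Ngfr and Tnfrsf21.

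The cells were immature oligodendrocytes (iOLs), grown from oligodendrocyte precursor cells (OPCs) that had been taken from mouse brain at postnatal day 7 by immunopanning, grown with the factors NT-3 (1 ng/ml) and PDGF-AA (10 ng/ml), and then kept in 15 nM triiodothyronine (T3) with 10 ng/ml CNTF for 1 day. RNA sequencing was done on 4 Med23+/+ and 4 Med23-/- libraries. The mutant mice carried floxed Med23 alleles and Olig1-Cre, a Cre expressed from the Olig1 locus, and the controls were Med23 fl/fl littermates, so that both genotypes carried the floxed alleles and the Cre was present in the mutants alone. Nothing states that the 4 libraries of a genotype came from separate animals or cultures, so the p-values measure the spread between these libraries, which may be technical.

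Oligodendrocytes wrap axons in myelin, and several of the proteins that hold back axon growth in the adult central nervous system are made by these cells. Nogo (encoded by Rtn4), oligodendrocyte myelin glycoprotein (Omg) and myelin-associated glycoprotein (Mag) bind the Nogo receptor, which has no intracellular part and signals through LINGO-1 together with the p75 neurotrophin receptor or TROY. LINGO-1 is also known as a brake on the oligodendrocyte itself: blocking it favours differentiation and myelination. DR6, the product of Tnfrsf21, has been described as another negative regulator of oligodendrocyte maturation.

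LINGO-1 and LINGO-2 are leucine-rich repeat proteins of close sequence, and the coding sequences of Lingo1 and Lingo2 were identical at 1173 of 1805 aligned bases, or 65.0%. The most alike stretch of 60 coding bases is shown because these paralogs moved in opposite directions between the genotypes, and capitals mark the 9 bases at which they differ. Positions count from the first base of the start codon in the GENCODE transcript with the longest coding sequence, 429 to 488 in Lingo1 and 387 to 446 in Lingo2.
Lingo1: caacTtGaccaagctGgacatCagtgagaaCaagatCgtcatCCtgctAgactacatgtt
Lingo2: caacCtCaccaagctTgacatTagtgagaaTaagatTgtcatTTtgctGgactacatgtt
The longest identical run shared by the aligned coding sequences was 16 bases. Over all their transcripts, 0% of the 50-base words of Lingo2 and 0.271% of those of Lingo1 occurred in another gene.

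The levels of the 9 genes spanned a wide range, and 4 of them differed between the genotypes. Lingo2, Rtn4 and Tnfrsf21 were lower in Med23-/- iOLs and Lingo1 was higher, at an adjusted p under 0.05 by limma. The test covered 12328 genes whose FPKM (fragments per kilobase of transcript, scaled for the size of the library) averaged 1 or more. Of these, 14.1% were lower and 15.9% higher by the same rule, 30% in all, so a count of 3 lower and 1 higher among the 7 genes tested stood against a broad background of change. When a fold change above 2 was also required, 1 of the 7 was called lower, Lingo2, and 0 higher. By that rule 1.75% of all genes tested were lower and 2.98% higher.

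**Figure D1:**
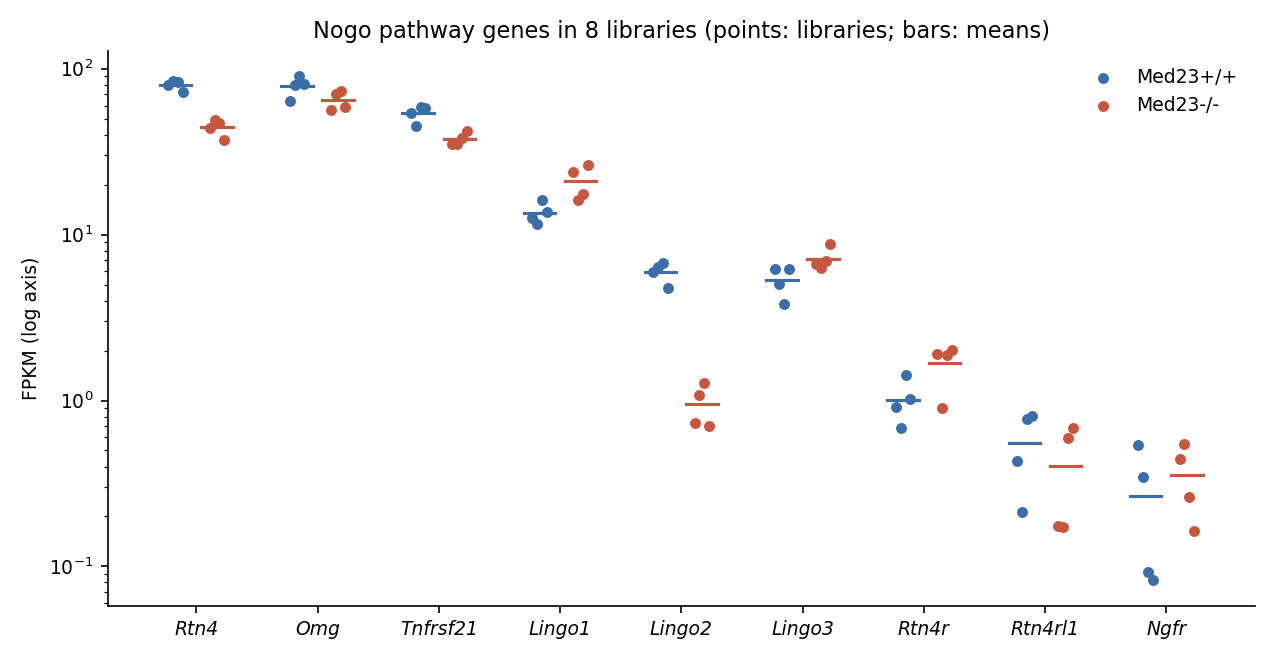
FPKM of the 9 genes (log axis) in the 4 Med23+/+ libraries (blue points) and the 4 Med23-/- libraries (red points), with horizontal bars at the means of each genotype. The points of Lingo2, Rtn4 and Tnfrsf21 lie lower and those of Lingo1 and Lingo3 higher in every Med23-/- library than in any Med23+/+ library, and the points of the other 4 genes overlap.

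The genotype of the libraries was checked on Med23 itself. Med23 was at 12.7, 12.2, 12.6 and 12.6 FPKM in Med23+/+ replicates 1 to 4 and at 8.40, 7.93, 8.49 and 8.21 FPKM in Med23-/- replicates 1 to 4. All Med23-/- values lay under the lowest Med23+/+ value, by 1.52-fold in the means (log2 fold change -0.55 on log2(FPKM + 1), adjusted p = 0.000353). The values cover the whole gene, so transcripts that lack the deleted part still count. The source of the level that remained in Med23-/- libraries was not tested.

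Markers of other stages and cell types gave the setting for these levels. All 7 markers of committed and immature oligodendrocytes tested were lower in Med23-/- iOLs, with a summed level of 1751 to 2055 FPKM in Med23+/+ and 563 to 886 FPKM in Med23-/- libraries, and so were the 4 myelinating oligodendrocyte markers that were tested of 7. Of 7 OPC markers, 2 were higher and 2 lower, and their sums overlapped, at 2229 to 2543 and 2091 to 2592 FPKM. The 2 that rose were Pdgfra, the receptor for the OPC mitogen PDGF-AA, from 121 to 334 FPKM in the means, and Cspg4. Cspg4, which encodes NG2, rose from 38.9 to 102.5 FPKM. Gpr17 and Sox10 were the 2 that fell, from 698 to 355 and from 255 to 183 FPKM. The paper counts Sox10 among the differentiation regulators that fell. Olig1, with the highest mean of the 7, was at 706 and 686 FPKM, and the sums lean on it and on Gpr17. Of 12 neuron markers, 9 were higher and 0 lower, with sums of 307 to 337 and 428 to 538 FPKM. Map2, the marker with the highest mean of the 12, weighs most in these sums, at 161 and 202 FPKM in the means. Of 9 astrocyte markers, 3 were lower and 2 higher, with sums of 226 to 280 and 154 to 204 FPKM. These sums lean on S100b, the marker with the highest mean of the 9, which fell from 125 to 17.5 FPKM in the means. Gfap and Aqp4 were the other markers that fell. Sox9 and Slc1a2 were the 2 that rose, from 6.68 to 49.1 and from 11.0 to 17.8 FPKM in the means. All 9 microglia markers and all 7 Schwann cell markers had means under 1 FPKM, with Foxd3 and Gfra3 at 0 in every library, 6 of 8 endothelial markers were under 1 FPKM, and pericyte and fibroblast markers summed to 2.16 to 13.4 and 4.51 to 21.6 FPKM. In these bulk samples fewer cells of a type and less RNA per cell cannot be told apart.

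Rtn4, which encodes Nogo, fell in Med23-/- iOLs. Rtn4 lies at chr11:29692947-29744331 on the plus strand (mm10). Its level was 80.2, 84.1, 83.8 and 72.0 FPKM in Med23+/+ replicates 1 to 4 and 43.9, 48.9, 47.2 and 37.1 FPKM in Med23-/- replicates 1 to 4. Replicate 4 was the lowest library within each genotype, and the highest Med23-/- library remained well under the lowest Med23+/+ library. The means were 79.999 ± 5.65 and 44.3 ± 5.22 FPKM (SD, n = 4), which is 1.81-fold lower, and the log2 fold change was -0.84 (95% interval -1.07 to -0.62, adjusted p = 0.000281 by limma). The gene-level value sums Nogo-A, Nogo-B and Nogo-C, the products of different starts and exons, and does not separate them. Its last part runs into Eml6 on the opposite strand, with 1284 shared exonic bases and 17.0% of the 50-base words of Rtn4 found in Eml6, and counting by strand was not stated. Eml6 itself was at 6.16 ± 0.810 and 6.25 ± 1.12 FPKM (log2 fold change 0.01, adjusted p = 0.964), a small level beside that of Rtn4.

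Omg, the other ligand of the Nogo receptor among the 9, overlapped with Rtn4 in level in Med23+/+ iOLs, and its difference between the genotypes did not pass the test. Omg lies at chr11:79500982-79504084 on the minus strand, inside Nf1 on the plus strand, with 0 exonic bases in common. It was at 63.9, 80.1, 90.4 and 80.5 FPKM in Med23+/+ replicates 1 to 4 and at 56.2, 70.8, 73.1 and 59.0 FPKM in Med23-/- replicates 1 to 4. The genotypes overlapped through Med23+/+ replicate 1, which was lower than 2 of the Med23-/- libraries. The means were 78.7 ± 11.0 and 64.8 ± 8.41 FPKM, with a log2 fold change of -0.27 (95% interval -0.55 to 0.0028, adjusted p = 0.124). Without Med23+/+ replicate 1 the difference passed, at a log2 fold change of -0.37 and an adjusted p of 0.0424 by limma. Nf1, the host gene, had a log2 fold change of -0.19 and an adjusted p of 0.122.

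The Nogo receptor genes were close to the limit of the filter on low values. Rtn4r, at chr16:18127642-18152408 on the plus strand, encodes the receptor for Nogo, Mag and Omg. It was at 0.912, 0.685, 1.42 and 1.02 FPKM in Med23+/+ replicates 1 to 4 and at 1.92, 0.905, 1.89 and 2.02 FPKM in Med23-/- replicates 1 to 4. Of the Med23-/- libraries 3 lay above all Med23+/+ libraries and replicate 2 lay among them. The log2 fold change was 0.41 (95% interval -0.001 to 0.81, adjusted p = 0.122), and without Med23-/- replicate 2 it was 0.56 with an adjusted p of 0.0236 by limma. On the log2(FPKM + 1) scale, a change in a gene at this level is understated.

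Rtn4rl1, at chr11:75193783-75267769 on the plus strand, encodes a related receptor anchored in the membrane by a lipid. It stayed below the filter, at 0.432, 0.213, 0.773 and 0.807 FPKM in Med23+/+ replicates 1 to 4 and 0.174, 0.174, 0.591 and 0.679 FPKM in Med23-/- replicates 1 to 4. The genotypes overlapped over most of their range, and a two-sided exact permutation test gave p = 0.457 (log2 difference -0.15), where 0.0286 is the smallest p that 4 against 4 libraries allow. In both genotypes replicates 3 and 4 lay above replicates 1 and 2, and the permutation test takes no account of the replicate numbers. Within the receptor family of Rtn4r, Rtn4rl1 and Rtn4rl2, Rtn4r held 45.4% ± 6.35 of the summed FPKM in Med23+/+ and 57.3% ± 8.03 in Med23-/- libraries. These ranges overlapped, and the sums were 2.23 ± 0.550 and 2.91 ± 0.783 FPKM.

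Lingo1 rose in Med23-/- iOLs. Lingo1 lies at chr9:56618475-56796468 on the minus strand, and it was the most abundant of its family in all 8 libraries. It was at 12.7, 11.7, 16.1 and 13.7 FPKM in Med23+/+ replicates 1 to 4 and at 23.9, 16.2, 17.5 and 26.3 FPKM in Med23-/- replicates 1 to 4. The genotypes did not overlap but came close, since Med23+/+ replicate 3 and Med23-/- replicate 2 differed by less than 1 FPKM, and the Med23-/- libraries were split between replicates 1 and 4, which were high, and replicates 2 and 3. The means were 13.5 ± 1.91 and 21.0 ± 4.89 FPKM, which is 1.55-fold higher, with a log2 fold change of 0.58 (95% interval 0.22 to 0.93, adjusted p = 0.0213 by limma). The call was lost without Med23+/+ replicate 1, Med23+/+ replicate 2 or Med23-/- replicate 1, where the adjusted p was 0.0557, 0.0592 and 0.0643. The summed neuron markers were higher in every Med23-/- library, as was Lingo1, a gene that neurons also express. Among the OPC markers Pdgfra and Cspg4 were higher too, while Gpr17 and Sox10 were lower and the summed levels overlapped. The part of either marker list in the rise of Lingo1 was not tested.

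Lingo2 showed the largest fold change of the 7 genes tested, in the opposite direction to Lingo1. Lingo2 is a long gene, at chr4:35706647-36951747 on the minus strand. It was at 5.91, 6.42, 6.71 and 4.78 FPKM in Med23+/+ replicates 1 to 4 and at 0.736, 1.09, 1.28 and 0.703 FPKM in Med23-/- replicates 1 to 4. All Med23-/- libraries lay far below the lowest Med23+/+ library, and the gene passed the filter through its Med23+/+ level. The means were 5.95 ± 0.851 and 0.9503 ± 0.278 FPKM, which is 6.27-fold lower, and the log2 fold change on log2(FPKM + 1) was -1.84 (95% interval -2.15 to -1.53, adjusted p = 3.2e-05 by limma). By its p-value Lingo2 ranked 54 among the 12328 genes. The markers of committed and immature oligodendrocytes moved the same way, and their part in the fall of Lingo2, Rtn4 and Tnfrsf21 was not tested.

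Lingo3, at chr10:80832801-80844039 on the minus strand, is a less studied paralog. It was at 6.16, 5.05, 3.83 and 6.24 FPKM in Med23+/+ replicates 1 to 4 and at 6.66, 6.33, 6.89 and 8.78 FPKM in Med23-/- replicates 1 to 4. The genotypes did not overlap, by a margin of less than 0.1 FPKM between Med23+/+ replicate 4 and Med23-/- replicate 2. The log2 fold change of 0.38 (95% interval 0.05 to 0.71) did not pass over all genes, with an adjusted p of 0.0801. Of the 7 genes tested, 5 had libraries of the genotypes that did not overlap, beside 31.6% of all genes tested.

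The make-up of the Lingo family changed with these values, while its sum did not separate the genotypes. Lingo1 made up 51.7% ± 4.36 of the family's FPKM in Med23+/+ and 66.0% ± 3.77 in Med23-/- libraries. The share of Lingo2 was 22.9% ± 3.30 and 3.20% ± 1.43, with 18.4% as the lowest Med23+/+ value and 4.59% as the highest Med23-/- value. Lingo3 held 20.5% ± 4.84 and 22.9% ± 2.40, with overlapping ranges. Lingo4, a paralog outside the 9 genes, was at 1.27 ± 0.164 and 2.55 ± 0.903 FPKM (log2 fold change 0.62, adjusted p = 0.0209 by limma). The family summed to 26.1 ± 1.47 FPKM in Med23+/+ and 31.6 ± 6.33 FPKM in Med23-/- libraries, and the ranges of 24.5 to 28.0 and 25.5 to 39.6 FPKM overlapped.

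**Figure D2:**
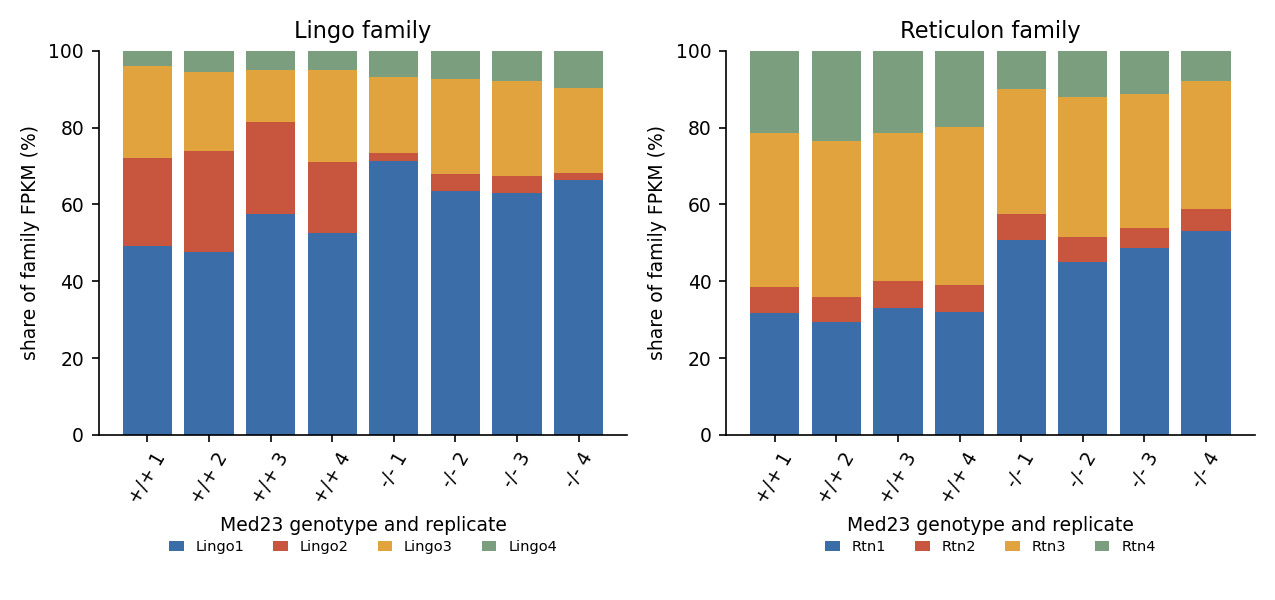
Share of each gene (percent) in the summed FPKM of the Lingo family (left) and the reticulon family (right), with 1 stacked bar for each of the 4 Med23+/+ and 4 Med23-/- libraries. Lingo2 takes 18.4% or more of the Lingo family in each Med23+/+ library and 4.59% or less in each Med23-/- library, and Rtn1 rises from a mean of 31.5% to 49.4% of the reticulons as Rtn4 falls from 21.5% to 10.3%.

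The reticulons, the membrane-curving proteins of the endoplasmic reticulum to which Nogo belongs, also shifted among themselves. Rtn1, a reticulon best known from neurons, was at 119, 105, 130 and 116 FPKM in Med23+/+ replicates 1 to 4 and at 223, 183, 205 and 254 FPKM in Med23-/- replicates 1 to 4. Every Med23-/- library was higher (log2 fold change 0.87, 95% interval 0.62 to 1.12, adjusted p = 0.000481 by limma). Rtn3 was at 149 ± 2.91 and 149 ± 7.15 FPKM, with a 95% interval of -0.15 to 0.15 for its log2 fold change, and Rtn2 at 25.4 ± 1.54 and 26.4 ± 3.07 FPKM, with an interval of -0.16 to 0.26. Rtn4 was thus 21.5% ± 1.51 of the summed reticulon FPKM in Med23+/+ and 10.3% ± 1.87 in Med23-/- libraries. The neuron markers rose in the same libraries as Rtn1, and their part in its rise was not tested.

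Tnfrsf21, which encodes DR6, was lower in Med23-/- iOLs. It lies at chr17:43016555-43089189 on the plus strand. Its level was 53.9, 45.1, 58.7 and 58.1 FPKM in Med23+/+ replicates 1 to 4 and 35.4, 35.1, 38.4 and 42.0 FPKM in Med23-/- replicates 1 to 4. The highest Med23-/- library, replicate 4, lay below the lowest Med23+/+ library, replicate 2. The means were 54.0 ± 6.26 and 37.7 ± 3.22 FPKM, which is 1.43-fold lower, with a log2 fold change of -0.50 (95% interval -0.73 to -0.28, adjusted p = 0.00506 by limma).

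Ngfr, at chr11:95568818-95587735 on the minus strand, encodes the p75 neurotrophin receptor, the classical partner of the Nogo receptor and LINGO-1. It was below the filter, at 0.540, 0.344, 0.0930 and 0.0823 FPKM in Med23+/+ replicates 1 to 4 and at 0.445, 0.546, 0.263 and 0.163 FPKM in Med23-/- replicates 1 to 4. The genotypes overlapped, and the two-sided exact permutation test gave p = 0.457 (log2 difference 0.11). Replicates 1 and 2 lay above replicates 3 and 4 in both genotypes, and the test takes no account of the replicate numbers. TROY, encoded by Tnfrsf19, can take the place of this receptor in the complex. Tnfrsf19 was at 8.17, 9.59, 7.14 and 7.86 FPKM in Med23+/+ replicates 1 to 4 and at 17.0, 15.8, 11.99 and 15.3 FPKM in Med23-/- replicates 1 to 4. All Med23-/- libraries were higher (log2 fold change 0.80, 95% interval 0.53 to 1.07, adjusted p = 0.0011 by limma), and in every library Tnfrsf19 was well above Ngfr in FPKM, a level per length.

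**Figure D3:**
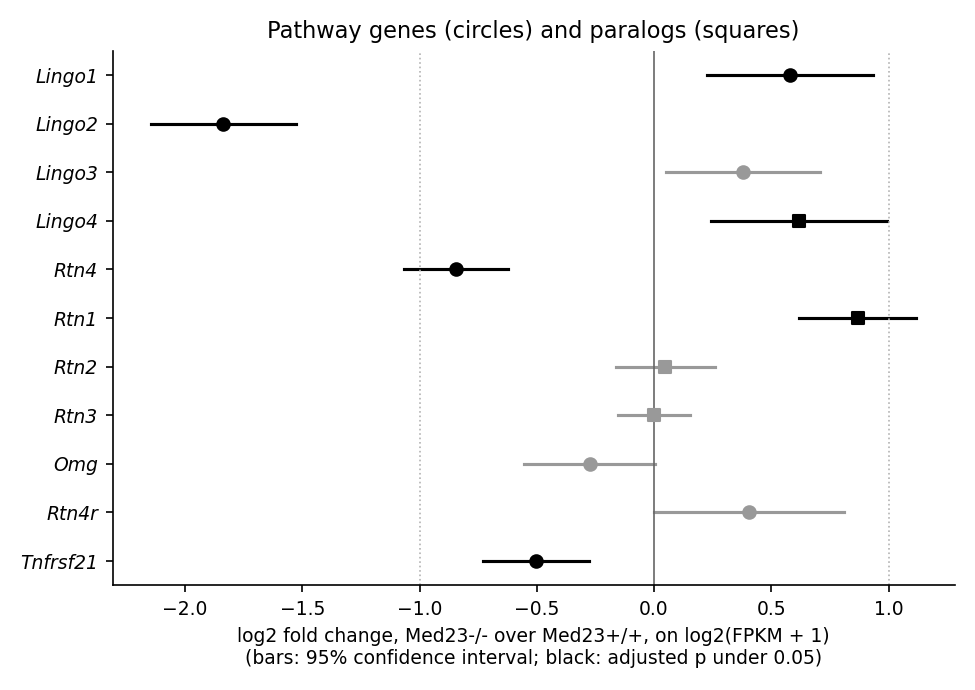
Log2 fold change of Med23-/- over Med23+/+ on log2(FPKM + 1) for the 7 pathway genes tested (circles) and for Lingo4, Rtn1, Rtn2 and Rtn3 (squares), with bars for the 95% interval and black for an adjusted p under 0.05. Lingo2 lies at -1.84, beyond the dotted line of a fold change of 2, while Lingo1 at 0.58 and Rtn4 at -0.84 lie within the dotted lines.

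In order of FPKM, the Med23+/+ libraries ran Rtn4, Omg, Tnfrsf21, Lingo1, Lingo2, Lingo3, Rtn4r, Rtn4rl1 and Ngfr. Rtn4 and Omg overlapped in their ranges, as did Lingo2 and Lingo3, and each of the last 3 overlapped with its neighbour. In Med23-/- libraries Omg came first, without overlap with Rtn4, and Rtn4 overlapped with Tnfrsf21. Lingo1 and Lingo3 followed, each clear of its neighbours, then Rtn4r, Lingo2, Rtn4rl1 and Ngfr. Lingo2 overlapped with Rtn4r above it but not with Rtn4rl1.

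The regions before the starts of the genes that differed are shown because the study examined Sp1, a factor that binds GC boxes, beside Med23. The 250 bases before an annotated RefSeq start were read on the gene's strand from the GRCm38.p6 tables for 7 of the 9 genes, and Omg and Rtn4rl1 had no entry. Capitals mark GGGCGG, the core of the GC box, or its complement CCGCCC. For Lingo1 and Lingo2, with 2 starts each, and Rtn4, with more, the window shown is 1 that meets no annotated exon: chr9:56635649-56635898 on the minus strand for Lingo1, chr4:35845205-35845454 on the minus strand for Lingo2, chr11:29692648-29692897 on the plus strand for Rtn4 and chr17:43016305-43016554 on the plus strand for Tnfrsf21.
Lingo1: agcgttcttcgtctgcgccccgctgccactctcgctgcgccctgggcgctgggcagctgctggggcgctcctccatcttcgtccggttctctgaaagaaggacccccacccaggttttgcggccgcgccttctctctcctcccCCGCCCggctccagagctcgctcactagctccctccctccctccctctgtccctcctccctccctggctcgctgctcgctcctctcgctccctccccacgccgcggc
Lingo2: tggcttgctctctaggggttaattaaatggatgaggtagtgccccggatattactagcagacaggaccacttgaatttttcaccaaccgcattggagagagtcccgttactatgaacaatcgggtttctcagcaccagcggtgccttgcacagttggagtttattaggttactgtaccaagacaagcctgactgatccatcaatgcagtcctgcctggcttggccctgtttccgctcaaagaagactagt
Rtn4: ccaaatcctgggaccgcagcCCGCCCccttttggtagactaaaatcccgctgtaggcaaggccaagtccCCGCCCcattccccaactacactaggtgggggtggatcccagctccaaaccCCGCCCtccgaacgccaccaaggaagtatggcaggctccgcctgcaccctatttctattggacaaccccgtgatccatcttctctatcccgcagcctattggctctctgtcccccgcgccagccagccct
Tnfrsf21: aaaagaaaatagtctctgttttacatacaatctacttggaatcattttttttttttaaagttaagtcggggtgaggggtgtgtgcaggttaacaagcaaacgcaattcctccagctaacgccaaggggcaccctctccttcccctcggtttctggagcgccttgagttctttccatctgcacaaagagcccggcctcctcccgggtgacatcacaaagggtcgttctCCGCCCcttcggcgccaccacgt
The motif occurred 1 time in each window of Lingo1, 3 times in that of Rtn4 shown and 1 time in that of Tnfrsf21. It occurred 0 times in both windows of Lingo2. Both of these lie inside Lingo2 as GENCODE draws the gene, so the region before its outermost start was not read. The window of Lingo1 shown also lies inside its gene. The other windows of Rtn4 held 1 match, in the window that meets an exon, and 0 matches, in the window at chr11:29718313-29718562, which also meets none. It also occurred 7 times before Rtn4r, where 2 matches overlap, and 4 times before Ngfr. Over all starts, 6 of the 7 genes held at least 1 match, beside 35.4% of the 27025 genes with a window. Neither this background nor the one by window was limited to genes expressed in these cells. Counted by window, 8 of 12 held a match (66.7%), beside 32.7% of 32851, and a gene with several starts has more windows in which to match. A match describes the letters alone, and Lingo1, which was higher, and Rtn4 and Tnfrsf21, which were lower, each held at least 1.

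The partners of the pathway were read from 5 lists written from general knowledge, with earlier results of these data known. Between 37.5% and 45.5% of the tested genes of a list passed in either direction, beside 30% of all genes, and the median log2 fold changes lay between 0.02 and 0.15, beside -0.01 for all genes tested.

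**Figure D4:**
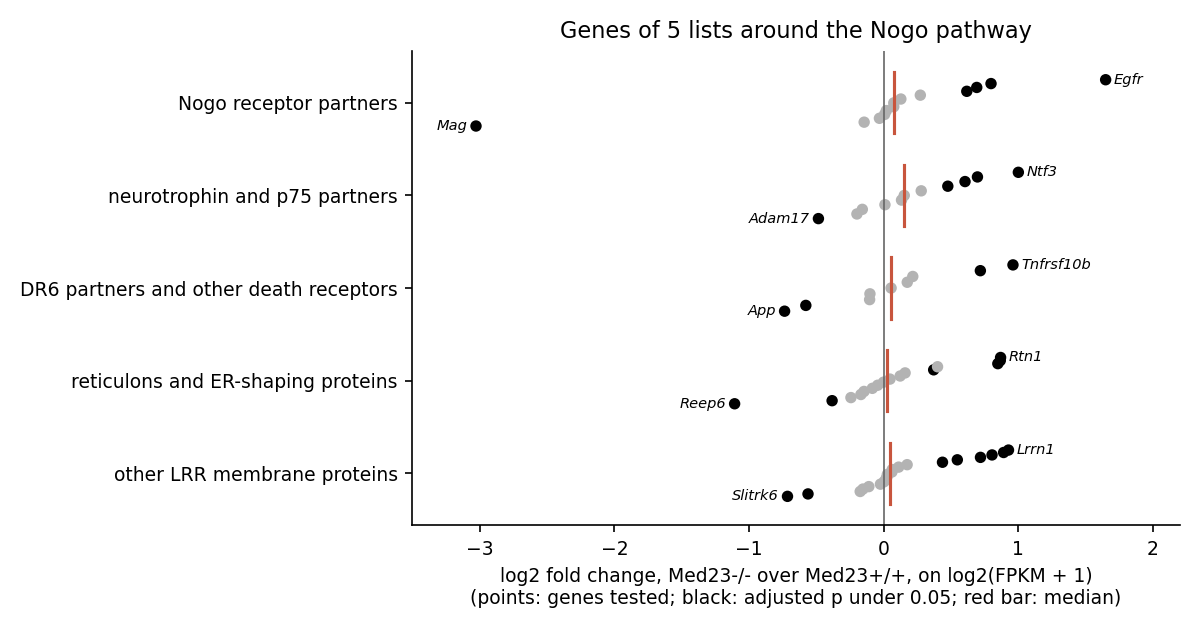
Log2 fold change of Med23-/- over Med23+/+ on log2(FPKM + 1) for each tested gene of 5 lists (points), in black where the adjusted p was under 0.05, with a red bar at the median of the list. The medians lie between 0.02 and 0.15, and Mag at -3.03 and Egfr at 1.65 lie farthest from 0.

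Among the partners of the Nogo receptor, 1 of 13 genes tested was lower and 4 were higher, with 3 of the 16 listed below the filter. The gene that fell was Mag, a ligand of the receptor and a myelin protein of maturing oligodendrocytes. Mag was at 11.9, 11.6, 19.6 and 13.8 FPKM in Med23+/+ replicates 1 to 4 and at 0.699, 0.597, 1.47 and 0.675 FPKM in Med23-/- replicates 1 to 4 (log2 fold change -3.03, adjusted p = 1.86e-05 by limma). Replicate 3 was the highest within each genotype, and the genotypes stood far apart. Mag passed the filter through its Med23+/+ level, as its Med23-/- mean of 0.860 FPKM was under 1. Egfr, the receptor for epidermal growth factor and a protein reported to bind LINGO-1, was at 3.40, 2.74, 0.892 and 1.42 FPKM in Med23+/+ replicates 1 to 4 and at 11.0, 8.78, 5.74 and 8.28 FPKM in Med23-/- replicates 1 to 4 (log2 fold change 1.65, adjusted p = 0.00169 by limma). Olfm1, a secreted protein that binds the Nogo receptor, also rose, from 37.1 ± 6.07 to 60.9 ± 11.5 FPKM (adjusted p = 0.00971), as did Tnfrsf19 and Lingo4.

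Of the neurotrophins, their receptors and partners of p75, 11 of 15 were tested, and 1 was lower and 4 higher. Ntrk3, the receptor for neurotrophin-3, rose from 25.7 ± 2.01 to 42.3 ± 4.45 FPKM (log2 fold change 0.70, adjusted p = 0.000552 by limma). Sort1, which encodes sortilin, a co-receptor of p75 for pro-neurotrophins, rose from 11.3 ± 1.35 to 17.7 ± 2.25 FPKM (log2 fold change 0.60, adjusted p = 0.00307). Ntf3, the gene of neurotrophin-3, which is also a factor of the OPC growth medium, was at 1.09 ± 0.824 and 3.07 ± 1.03 FPKM (adjusted p = 0.0187), and Ripk2 rose from 1.93 ± 0.298 to 3.10 ± 0.622 FPKM (adjusted p = 0.0253). Adam17, a protease that sheds the extracellular part of p75, fell from 22.7 ± 3.36 to 15.8 ± 1.16 FPKM (log2 fold change -0.48, adjusted p = 0.00735). Without Med23+/+ replicate 1 the count of lower genes was 2, and without Med23+/+ replicate 2 that of higher genes was 2.

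Of the DR6 partners and other death receptors, 9 of 12 were tested, with 2 lower and 2 higher. App, whose product binds DR6, fell from 168 ± 37.7 to 99.9 ± 17.1 FPKM (log2 fold change -0.74, adjusted p = 0.00907 by limma). Its paralog Aplp2 rose from 79.5 ± 8.63 to 133 ± 23.9 FPKM (log2 fold change 0.72, adjusted p = 0.00365). Tradd, an adaptor of death receptors, fell from 7.33 ± 1.18 to 4.57 ± 0.7002 FPKM (log2 fold change -0.58, adjusted p = 0.00831), and Tnfrsf10b, a TRAIL receptor, rose from 0.886 ± 0.425 to 2.63 ± 0.505 FPKM (log2 fold change 0.96, adjusted p = 0.00307). Tnfrsf10b passed the filter through its Med23-/- level.

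Of the reticulons and other proteins that shape the endoplasmic reticulum, all 16 were tested, and 2 were lower and 4 higher. Besides Rtn1, Reep5 rose from 25.9 ± 4.53 to 47.7 ± 3.65 FPKM (log2 fold change 0.87, adjusted p = 0.000856 by limma). Arl6ip1 rose from 118 ± 18.1 to 212 ± 23.8 FPKM (adjusted p = 0.000995), and Atl2, which encodes a membrane-fusing atlastin, from 10.4 ± 0.462 to 13.8 ± 1.55 FPKM (adjusted p = 0.012). Reep6 fell from 4.59 ± 0.883 to 1.58 ± 0.302 FPKM (log2 fold change -1.11, adjusted p = 0.000469), and the atlastin gene Atl3 from 22.2 ± 1.02 to 16.8 ± 0.578 FPKM (adjusted p = 0.00273).

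Other leucine-rich repeat membrane proteins, relatives of the LINGO proteins in domain structure, had 20 of 21 genes tested, of which 2 were lower and 6 higher. Flrt3 rose from 7.48 ± 0.474 to 14.8 ± 1.78 FPKM (log2 fold change 0.89, adjusted p = 0.000186 by limma), and Flrt2 from 5.87 ± 0.304 to 9.04 ± 0.363 FPKM (log2 fold change 0.55, adjusted p = 0.000683). Slitrk1 rose from 10.6 ± 1.70 to 19.1 ± 1.18 FPKM (log2 fold change 0.81, adjusted p = 0.000615). Lrrn1, Lrrn2 and Amigo1 were the other 3 that rose, and Lrrn3 and Slitrk6 were the 2 that fell, at log2 fold changes of -0.56 and -0.71. Without Med23+/+ replicate 2 or Med23+/+ replicate 3, the count of lower genes was 1.

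The genes whose log2(FPKM + 1) tracked each of the 7 tested genes most closely over the 8 libraries were found among 9433 to 9434 genes averaging 5 FPKM or more. The libraries share their genotype split, so these coefficients describe the pattern and carry no test. Clasp1 was most like Lingo1 (Pearson's r = 0.982), followed by Pdzrn4 (0.980). Rpsa and Calr were most like Lingo2 (0.997 and 0.996), and Epb4.1l2 and Cbln2 most like Rtn4 (0.995 and 0.994). The histone genes Hist1h3g and H2afx were most like Lingo3 (0.982 and 0.967), Nrde2 and Atp6v0a1 most like Rtn4r (0.965 and 0.947), Slc35a5 and Med13 most like Omg (0.990 and 0.986), and Atp6v1g1 and Acot7 most like Tnfrsf21 (0.992 and 0.987).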

How the data were processed

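RNA was sequenced from 8 iOL libraries, 4 Med23+/+ and 4 Med23-/-, after 1 day of differentiation. The authors trimmed reads with cutadapt, mapped the reads with TopHat2 (mm10, defaults) and quantified genes with Cuffdiff. Tool versions, the gene annotation, strand settings and the library normalization of Cuffdiff are not given in the sources used here. The authors deposited FPKM values per library for 24346 genes, the unit analysed here. The deposited table also holds the authors' mean FPKM per genotype and the log2 fold change, test score, p-value, q-value and status of their own comparison, and none of these was used. FPKM keeps no read counts, and depth is therefore unknown. The median-ratio scaling factors ran from 0.977 to 1.02, and the number of genes above 0 from 15941 to 16469.

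Values were transformed to log2(FPKM + 1), with no further scaling, and the 12328 genes averaging 1 FPKM or more were tested with limma 3.58.1 in R 4.3.3 (lmFit and eBayes with a trend), with Benjamini-Hochberg adjustment over all of them. A difference was taken at an adjusted p under 0.05, and also with a fold change above 2. For genes below the filter an exact permutation test (two-sided) was used. The 9 genes and all lists were chosen with earlier results of these data known. Another list of signalling genes is not reported here. Named in the text are the 9 genes, Med23, the paralogs, Nf1, Eml6, the 3 tested genes of smallest p in each pathway list and the 2 genes most like each tested gene. The other genes of the lists that passed, with Nf1, Eml6 and the cell type markers, were named after their values were seen. Each cell type marker named passed the test, had the highest mean of its list or was at 0 in every library. Coordinates, coding sequences and overlaps were taken from GENCODE vM21, which uses the same build as the files, and regions before starts from RefSeq on GRCm38.p6; Biopython 1.88 aligned the coding sequences. Alternatives were another pseudocount, other filters, quantile and median-ratio normalization, no trend, sample weights, a replicate block, replicate pairs 1 and 2 or 3 and 4 alone, and leaving out each library.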

Additional observations from a re-analysis of the deposited data

Results flagged for a closer look

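In groups of 4 libraries, a library far from the other 3 was looked for in the genes named, and 8 of 90 groups held one (8.89%), where chance gives about 1 in 20. Rtn4r in Med23-/- replicate 2 was 0.905 FPKM, far below the other 3 at 1.89 to 2.02. Mag in Med23-/- replicate 3 was 1.47 FPKM, above 0.597 to 0.699 in the others. Reep5 in Med23-/- replicate 3 was 53.1 FPKM, above 45.6 to 46.1. Hist1h3g in Med23-/- replicate 4 was 446 FPKM, above 218 to 238. Flrt3 in Med23+/+ replicate 4 was 8.19 FPKM, above 7.17 to 7.31, and Flrt2 in Med23+/+ replicate 2 was 6.32 FPKM, above 5.66 to 5.76. Epb4.1l2 in Med23+/+ replicate 4 was 148 FPKM, below 176 to 180.5, and Rtn4rl2 in Med23+/+ replicate 1 was 1.11 FPKM, above 0.464 to 0.546. Of these, the groups of Mag, Reep5, Hist1h3g, Flrt3, Flrt2 and Epb4.1l2 did not overlap with the other genotype even with the distant library included.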

How the results depend on the processing

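The direction of all 7 tested genes was the same under every alternative run. Rtn4 passed under all 18 and Lingo2 under all 17 that could be fitted, since a filter at a mean of 5 FPKM dropped Lingo2 and Rtn4r. Lingo1 passed under 13 of 18: it did not with replicates 1 and 2 alone (0.65, adjusted p = 0.0738 by limma), replicates 3 and 4 alone (0.50, adjusted p = 0.202), or without the 3 libraries named in the text, and leaving out each library gave log2 fold changes of 0.47 to 0.69. Tnfrsf21 did not pass with replicates 1 and 2 alone (-0.47, adjusted p = 0.0521). Leaving out each library gave 0.32 to 0.56 for Rtn4r and -0.37 to -0.21 for Omg. With a replicate block Lingo3 (0.38, adjusted p = 0.0456) and Omg (-0.27, adjusted p = 0.0334) passed. The correlations of deviations for numbers 1 to 4 were 0.13, -0.10, -0.03 and 0.16. Not every library correlated best with its own number. Med23+/+ replicate 1 correlated with Med23-/- replicates 1 to 4 at 0.13, 0.16, -0.14 and -0.13, and Med23+/+ replicate 4 at -0.18, -0.14, 0.14 and 0.16. For Med23+/+ replicates 2 and 3 the values lay between -0.10 and 0.10. Nothing states what a shared number or a split of replicates 1 and 2 from 3 and 4 means, so the block rests on the number alone. The block called 31.8% of all genes.

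The count of pathway genes called lower was 1 with the fold rule, 0 with the filter at 5 FPKM and 3 by adjusted p alone, and that called higher was 0 and, by adjusted p alone, 1. With 2 libraries per genotype 12.3% (replicates 1 and 2) and 11.4% (replicates 3 and 4) of all genes were called. With replicates 1 and 2 alone, the lower counts were 0 for neurotrophins and 1 each for DR6 partners, reticulons and leucine-rich repeat proteins, and the higher counts were 2 for Nogo receptor partners, 2 for neurotrophins and 1 for DR6 partners. With replicates 3 and 4 alone, the lower counts were 0 for neurotrophins, 1 for reticulons and 0 for leucine-rich repeat proteins, and the higher counts 0 for neurotrophins and 3 for leucine-rich repeat proteins. The filter at 5 FPKM gave 1 lower reticulon, 1 lower leucine-rich repeat protein, 2 higher neurotrophin genes and 1 higher DR6 partner. Leaving out each library gave 1 to 2 lower and 2 to 4 higher neurotrophin genes and 1 to 2 lower leucine-rich repeat genes. Lingo2, Reep6, Slitrk6, Ntf3, Ripk2 and Tnfrsf10b averaged under 5 FPKM, so the filter at 5 FPKM left them out and they could not be called. Fewer libraries enter the other fits, and the cause of single moves there was not tested.

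FPKM carries no depth, so low genes such as Rtn4r, Rtn4rl1 and Ngfr have no counting interval. Gene-level values do not separate isoforms.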
